A study of Mus musculus with 4 samples.

Results

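The genes described here encode serum response factor (SRF) with its cofactors and early-response targets, the proteins of focal adhesions, and the actin-binding and actomyosin proteins of the cytoskeleton. They were given as a list of 37 gene symbols with these functions. A named row of the arrays was found for 36 of the 37, among 24011 genes in all, and Ptk2, which encodes focal adhesion kinase, was not analysed here. The study asked what is lost when mouse myoblasts lack R-spondin 1, a secreted protein that amplifies canonical Wnt signalling. Primary myoblasts are cultured descendants of satellite cells, the stem cells of adult muscle, and here they came from limb muscles of adult C57bl6N/sv129 mice. The wild-type group had 2 cultures and the Rspo1-null group had 2, the null cells carrying a germline loss-of-function allele of Rspo1 that also affects every other tissue of the donor. All 4 cultures had been grown over 5 passages with 20% fetal bovine serum and 2 ng/ml basic fibroblast growth factor, then kept for 24 h in differentiation medium with 2% horse serum, and no group received another agent. RNA was hybridised to 4 Affymetrix Mouse Gene 2.1 ST arrays, 1 per culture, and each value below is a normalised log2 intensity, on which a difference of 1 is a doubling.

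SRF is a DNA-binding transcription factor that docks on a short A/T-rich element, the CArG box, and is activated by myocardin-related transcription factors (MRTFs) when actin polymerisation releases them from monomeric actin. Its targets include actins, actin-binding proteins and adhesion components, so the pathway both reads and rebuilds the cytoskeleton. Focal adhesions join integrins to actin stress fibres through talin, kindlin, vinculin and the ILK complex, and in muscle the same proteins hold the contractile apparatus to the membrane and take part in myoblast spreading, alignment and fusion.

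The labels were checked first. Rspo1 itself stood at 5.71 and 5.84 in wild-type cells and at 5.29 and 5.33 in Rspo1-null cells, so the groups did not overlap, but the null arrays remained above the background level of 4.69. The sources used here do not say which stretch of Rspo1 was deleted, so its probes are a limited check of the genotype. The background level is the 95th percentile of the mean values of 1370 olfactory and vomeronasal receptor genes, and a gene below it in both genotype means is called dim. The myogenic factors Myod1 (9.87 to 10.34) and Myog (9.56 to 11.70) were high on every array, whereas the 5 endothelial markers were dim, as were 5 of the 6 immune markers. The fibroblast markers Dcn, Lum and Pdgfra and the smooth muscle myosin gene Myh11 were below background on all 4 arrays. Of the fibroblast list 4 of 9 genes were not dim. These were Col3a1 (7.09 to 7.82), Thy1 (5.12 to 6.27), Col1a1 (4.93 to 5.16) and Col1a2 (4.56 to 5.47). The mean level of the fibroblast list was 4.26 to 4.35 in wild-type and 4.35 to 4.50 in Rspo1-null cells. Of the smooth muscle and pericyte list 4 of 8 were not dim, with mean levels of the list of 4.92 to 5.32 and 4.93 to 5.28. These 4 were Smtn (6.43 to 8.05), Synpo2 (5.57 to 6.49), Rgs5 (4.64 to 6.65) and Cspg4 (4.71 to 5.61). The part of these other cell types in the results was not tested.

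A second division ran across the genotypes. Xist, the RNA that coats the inactive X chromosome, stood at 10.39 in wild-type culture 2 and 10.38 in Rspo1-null culture 1, against 4.35 and 4.07 in the other two. The Y-linked gene Eif2s3y gave the reverse, with 8.19 in wild-type culture 1 and 8.51 in Rspo1-null culture 2 against 2.60 and 3.51. The labels give no sex. The arrays are called the Xist pair (wild-type 2 with Rspo1-null 1) and the Y pair (wild-type 1 with Rspo1-null 2) below, and each pair holds 1 culture of each genotype. Myogenin was also higher in the Y pair (11.07 and 11.70 against 9.56 and 9.96), so sex and progress of differentiation cannot be told apart between the pairs. All results that follow are given by genotype and then within or between these pairs.

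By genotype, none of the 36 genes passed an adjusted p of 0.05, and none of the 24011 genes did (0% called). At an unadjusted p under 0.05 in limma, 2 of 36 passed, Zyx and Ilk, both higher in Rspo1-null cells. This is a share of 5.56% beside a background in either direction of 3.17% of all genes and 3.67% of genes that were not dim. Over all genes, 1.2% passed as higher and 1.97% as lower. The values of 5 members did not overlap between the genotypes with the null cells higher (Ilk, Lims1, Zyx, Cnn2 and Tagln). This is 13.9% of 36 against 12.1% of all genes and 15.8% of genes that were not dim. For 2 members, Fos and Cnn1, the null cells were lower without overlap, 5.56% against 19.1% of all genes and 12.9% of genes that were not dim. A difference larger than the larger gap between cultures of 1 genotype was found for 3 members (Ilk, Zyx and Cnn2). This is 8.33% of 36 against 19.7% of all genes and 17.2% of genes that were not dim. Counts near or under the background are no result about the list.

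The means leaned to the null cells, which is given as a description because the list was drawn up with results of these arrays in view. The null mean was higher for 29 of 36 members and lower for 7, or 80.6% higher, where 44.8% of all genes and 55.8% of genes that were not dim had the higher mean in null cells. The median difference was 0.19 over the members, -0.03 over all genes and 0.03 over genes that were not dim. Of the marker lists, 7 of 8 skeletal muscle markers (median 0.25) were higher by mean in null cells. So were 8 of 9 fibroblast markers (median 0.12, 5 of the 9 dim). Smooth muscle and pericyte markers were even, with 4 higher and 4 lower (median -0.04, 4 dim). The endothelial and immune lists, nearly all dim, leaned the other way, with 0 of 5 (median -0.13) and 2 of 6 (median -0.18) higher. The part of these markers in the members' shift was not tested. Leaving out each array in turn left between 23 and 28 members higher, and the median between 0.12 and 0.19. Under cyclic loess scaling 27 were higher with a median of 0.13, and after centring each array on its median 30 were higher with a median of 0.24, when the medians over all genes were 0.01 and 0.03. Many members are made together in the same cells, so they are not independent observations. The plot of every member on every array shows how small these shifts are beside the distance between cultures.

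**Figure D1:**
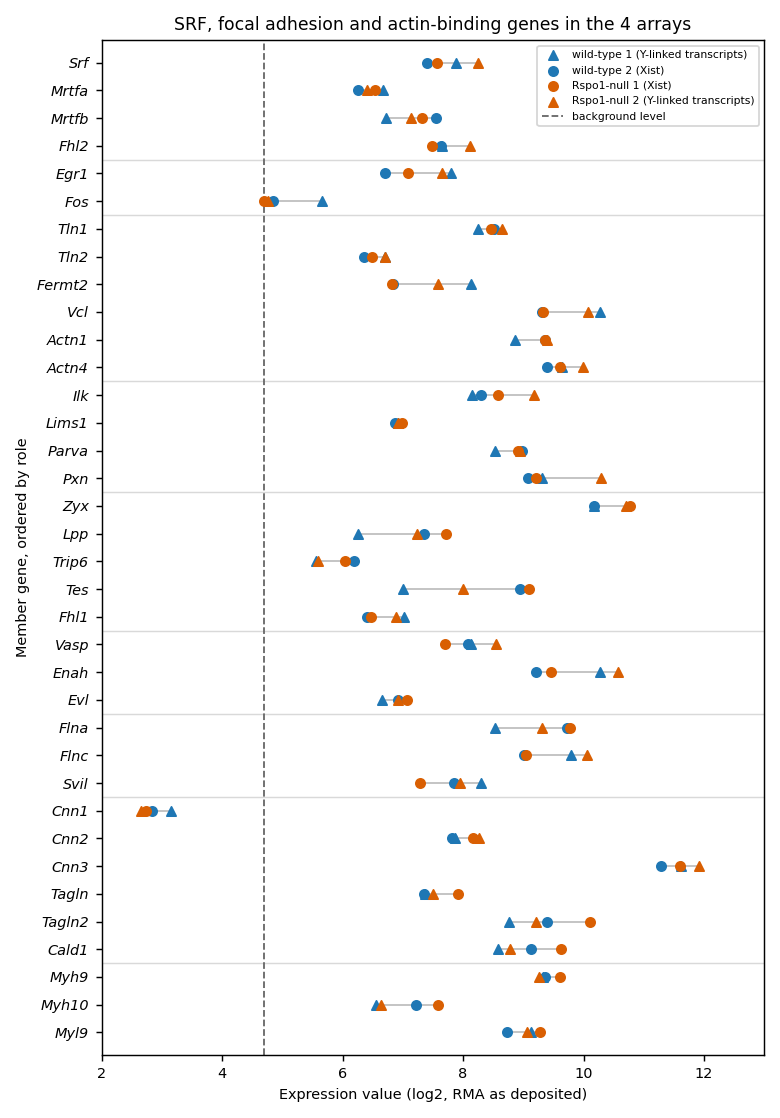
Normalised log2 intensity (x axis) of the 36 genes (rows, by role) on each of the 4 arrays, with genotype and array pair marked by colour and shape and the background level of 4.69 as a dashed line. Cnn1 lies below the line on all 4 arrays, and the points of Tes are spread over 2.09 log2 units while those of Lims1 fall within 0.11.

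The values of SRF and its cofactors overlapped between the genotypes. Srf stood at 7.87 and 7.40 in wild-type cultures 1 and 2 and at 7.57 and 8.25 in Rspo1-null cultures 1 and 2. The null mean was higher by 0.27 (SE 0.30, unadjusted limma p of 0.415, adjusted p of 0.999), with the lowest value and the highest value in different genotypes but the middle ones interleaved. Mrtfa, which encodes the actin-sensing coactivator MRTF-A, read 6.67 and 6.25 in wild-type cells and 6.53 and 6.40 in null cells, a difference of 0.00 (SE 0.20). Mrtfb, for the related MRTF-B, read 6.72 and 7.54 against 7.31 and 7.14, and again the wild-type values enclosed both null values. Fhl2 encodes a LIM-domain protein that binds SRF and is itself an SRF target, and its values of 7.65 and 7.63 in wild-type cells lay between 7.48 and 8.11 in null cells. The mean differences were 0.09 (SE 0.31) for Mrtfb and 0.16 (SE 0.25) for Fhl2.

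The 2 early-response genes, which are switched on through CArG boxes within minutes of serum or stretch, differed from each other in pattern. Egr1, a zinc-finger transcription factor, was at 7.80 and 6.71 in wild-type and at 7.08 and 7.65 in null cells. Its genotypes overlapped fully. Fos, a subunit of the AP-1 factor, was at 5.66 and 4.85 in wild-type and at 4.69 and 4.76 in null cells. The null arrays were lower without overlap, 1 of them just under the background level, and the difference of -0.53 (SE 0.30, unadjusted limma p of 0.144, adjusted p of 0.999) came mostly from wild-type culture 1, since it was -0.12 without that array.

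CArG boxes were looked for in the stretch of 250 bases before each RefSeq transcript start (GRCm38.p6). The box is a pair of C, then 6 bases that are each A or T, then a pair of G, so it reads alike on both strands. Windows were found for 30 of the 36 members, and Tln2, Pxn, Parva, Svil, Tagln and Egr1 are named only. The boxes are shown because they are the sites on which SRF could act directly near these starts, each with 10 bases on either side and the box in capitals, 5′ to 3′ along the gene's strand.
Srf, 82 bases before the start (chr17:46556225-46556254, minus strand): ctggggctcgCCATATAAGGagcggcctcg
Srf, 62 bases before the start (chr17:46556205-46556234, minus strand): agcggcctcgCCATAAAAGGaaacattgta
Fhl2, 96 bases before the start (chr1:43196838-43196867, minus strand): catttagagaCCAAAAAAGGcttgcaggag
Fhl2, 31 bases before another start (chr1:43163973-43164002, minus strand): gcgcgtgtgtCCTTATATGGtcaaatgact
Fermt2, 204 bases before the start (chr14:45530250-45530279, minus strand): tccttcatttCCATAAAAGGgcagcgctcc
Vcl, 227 bases before the start (chr14:20929161-20929190, plus strand): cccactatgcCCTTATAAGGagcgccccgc
Fhl1, 102 bases before the start (chrX:56779571-56779600, plus strand): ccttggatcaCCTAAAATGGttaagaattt
Cnn2, 56 bases before the start (chr10:79988534-79988563, plus strand): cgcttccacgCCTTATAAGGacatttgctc
Myl9, 161 bases before the start (chr2:156775293-156775322, plus strand): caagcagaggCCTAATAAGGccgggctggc

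A box was therefore present for 7 of 30 members (23.3%), with 9 boxes in 42 windows, where 1.62% of 27025 genes with a window and 1.47% of 32851 windows held one. The list was drawn up around SRF and its targets, so a share above that of all genes comes with the choice of genes. A match is a run of letters and not a measured binding site. Zyx and Ilk, the pair of members with the smallest p by genotype, had no box in this window, which says only that these letters are not there. Fos, described above as switched on through CArG boxes, had none in its window either. A box farther from the start is not seen here, so members without a box can still be SRF targets. The median genotype difference was 0.16 for the 7 members with a box and 0.23 for the 23 without.

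Among the proteins that link integrins to actin, Ilk and Zyx had the smallest p by genotype. Zyx encodes zyxin, a LIM protein that moves onto stress fibres under tension and helps repair them. It was at 10.17 in both wild-type cultures and at 10.77 and 10.70 in the null cultures, so both null arrays were higher by more than the gap within either genotype. The difference was 0.57 (SE 0.14), or 1.48-fold, with an unadjusted limma p of 0.0119 and an adjusted p of 0.999. It was 0.60 within the Xist pair and 0.53 within the Y pair, and stayed between 0.53 and 0.60 when each array was left out. The unadjusted p ran from 0.00407 to 0.0693 over the alternatives, missing the threshold only without Rspo1-null culture 1.

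Ilk encodes integrin-linked kinase, a pseudokinase scaffold that bridges integrin tails to parvin and PINCH. It was at 8.15 and 8.30 in wild-type and at 8.59 and 9.17 in null cells, without overlap, and Rspo1-null culture 2 was the highest. The difference was 0.65 (SE 0.24), or 1.57-fold, with an unadjusted limma p of 0.0462 and an adjusted p of 0.999. Unlike that of Zyx, it was uneven between the pairs, at 0.29 in the Xist pair and 1.02 in the Y pair. Leaving out each array gave 0.36 to 0.94, and the unadjusted p rose to 0.162 without wild-type culture 1, 0.103 without wild-type culture 2 and 0.182 without Rspo1-null culture 2.

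For the partners of integrin-linked kinase the differences were smaller or rested on 1 array. Lims1, which encodes PINCH1, was the steadiest of all members, with 6.92 and 6.87 in wild-type and 6.99 and 6.92 in null cells. Parva, for alpha-parvin, was at 8.52 and 8.97 in wild-type and at 8.92 and 8.95 in null cells, where wild-type culture 1 stood below the other three. Paxillin, the adaptor on which adhesion kinases gather, is encoded by Pxn, and its values were 9.31 and 9.07 in wild-type and 9.21 and 10.29 in null cells. Its difference of 0.56 (SE 0.39) rested on Rspo1-null culture 2 and was 0.02 without that array.

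Talin and kindlin bind integrin tails and switch integrins into the active state. Tln1, for talin 1, ranged from 8.25 to 8.65 and Tln2, for the talin of mature muscle, from 6.36 to 6.71, and both genotypes overlapped for each. Fermt2, for kindlin 2, was at 8.13 and 6.83 in wild-type and at 6.83 and 7.59 in null cells. Vcl, for vinculin, which reinforces talin under load, was at 10.27 and 9.31 against 9.33 and 10.06. For Fermt2 and Vcl the culture with the higher value was wild-type 1 and Rspo1-null 2, and the distance between the pairs exceeded that between genotypes. The alpha-actinin genes Actn1 (8.85 and 9.37 against 9.35 and 9.40) and Actn4 (9.65 and 9.39 against 9.60 and 9.98), for crosslinkers of actin filaments, also overlapped.

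The LIM and Ena/VASP proteins act beside zyxin at adhesions, where Ena/VASP proteins extend actin filaments. Lpp, for a zyxin relative, was at 6.25 and 7.36 in wild-type and at 7.71 and 7.24 in null cells, a difference of 0.67 (SE 0.42, unadjusted limma p of 0.173, adjusted p of 0.999). Wild-type culture 1 was the low array, and without it the difference was 0.12. Tes, for testin, had the widest spread of the list, with 6.996 and 8.94 in wild-type and 9.09 and 8.01 in null cells. Trip6, for a further zyxin relative, lay between 5.56 and 6.18, and Fhl1, for the LIM protein whose human gene is mutated in reducing body myopathy, lay between 6.41 and 7.01. Among the Ena/VASP genes, Vasp was at 8.13 and 8.09 against 7.69 and 8.55, Enah (for Mena) at 10.27 and 9.21 against 9.47 and 10.57, and Evl at 6.66 and 6.92 against 7.07 and 6.91. The genotypes overlapped for all 7 of these genes.

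**Figure D2:**
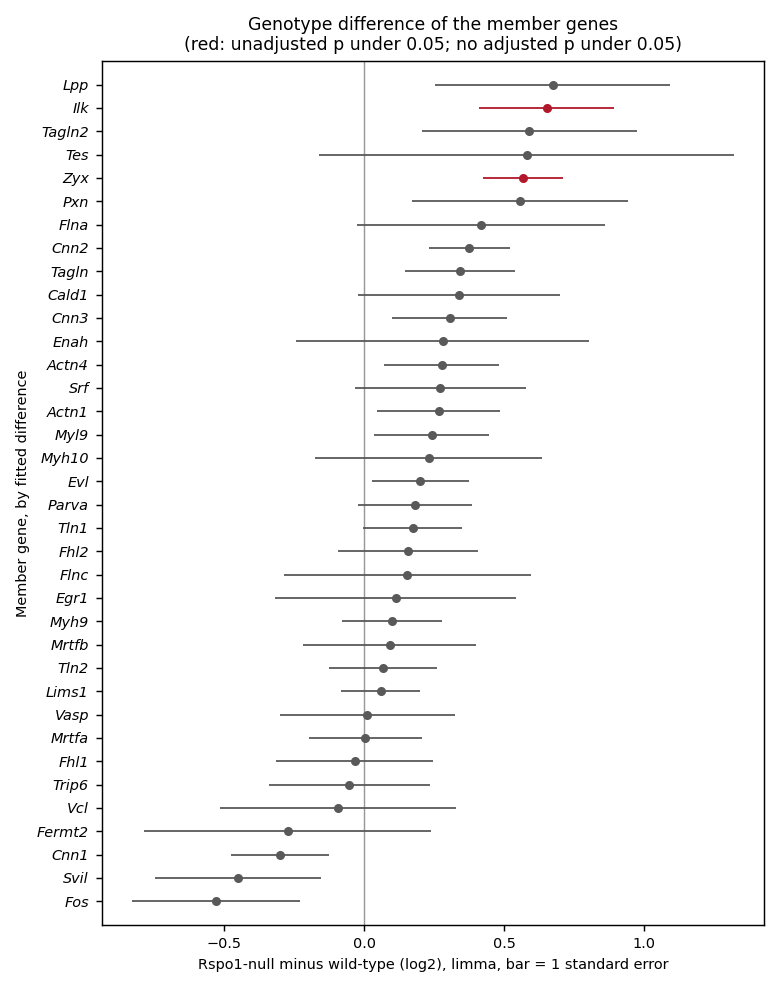
Difference between genotypes (Rspo1-null mean minus wild-type mean, log2, x axis) for the 36 genes, with bars of 1 standard error from limma, 2 arrays per genotype. Zyx at 0.57 and Ilk at 0.65 have an unadjusted p under 0.05, 29 of 36 points lie above 0, and Cnn1 was dim.

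The filamin, calponin and transgelin genes encode proteins that crosslink or sheathe actin filaments. Flna, for the widespread filamin A, was at 8.52 and 9.72 in wild-type and at 9.77 and 9.30 in null cells, a difference of 0.42 (SE 0.44). Flnc, for the filamin of muscle Z-discs, was at 9.78 and 9.01 against 9.05 and 10.06. The cultures with the 2 highest values of Flna were those with the 2 lowest of Flnc. Svil, for supervillin, a membrane-bound actin and myosin II binder, was at 8.30 and 7.85 in wild-type and at 7.29 and 7.95 in null cells. Its difference of -0.45 (SE 0.30, unadjusted limma p of 0.194, adjusted p of 0.999) was -0.56 in the Xist pair and -0.35 in the Y pair. It depended on single arrays, with -0.12 without Rspo1-null culture 1, -0.23 without wild-type culture 1, -0.68 without wild-type culture 2 and -0.78 without Rspo1-null culture 2.

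Of the calponin genes, Cnn1, the smooth muscle form, was below background on all 4 arrays (2.65 to 3.15) and has no fold change. Cnn2, the form of non-muscle cells, was at 7.86 and 7.82 in wild-type and at 8.17 and 8.27 in null cells. The null arrays were higher without overlap by 0.38 (SE 0.14), with 0.35 in the Xist pair and 0.41 in the Y pair, but the unadjusted limma p of 0.051 missed the threshold and the adjusted p was 0.999. It ranged from 0.0193 to 0.202 over the alternatives. Cnn3, the acidic form, was at 11.61 and 11.29 against 11.59 and 11.92. The transgelin gene Tagln, an SRF target also known as SM22 alpha, was at 7.37 and 7.35 in wild-type and at 7.92 and 7.50 in null cells, without overlap. Tagln2, for its non-muscle relative, was at 8.76 and 9.39 against 10.11 and 9.22, a difference of 0.59 (SE 0.38) that overlapped between genotypes because of wild-type culture 2. Rspo1-null culture 1 was the high array, and the difference was 0.14 without it, 0.27 without wild-type culture 1, 0.90 without wild-type culture 2 and 1.03 without Rspo1-null culture 2.

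Caldesmon and non-muscle myosin II drive and tune contraction of stress fibres. Cald1, for caldesmon, was at 8.59 and 9.13 in wild-type and at 9.62 and 8.77 in null cells. Myh9 and Myh10, for the heavy chains of non-muscle myosin IIA and IIB, were at 9.33 and 9.35 against 9.61 and 9.27 and at 6.55 and 7.22 against 7.59 and 6.64. Myl9, for a regulatory light chain, was at 9.12 and 8.73 against 9.28 and 9.05. The genotypes overlapped for all 4, and Rspo1-null culture 1 was the highest array for each.

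Within the pairs, where a null culture is set beside the wild-type culture with the same sex-linked transcripts, 23 of 36 members kept 1 direction, or 63.9%, beside 53.9% of all genes and 55.0% of genes that were not dim. The null culture was higher in both pairs for 19 and lower in both for 4, which were Fos, Fermt2, Svil and Cnn1, although the Fermt2 values of the Xist pair were equal to 2 decimals and Cnn1 was dim. Of all genes 23.3% were higher and 30.6% lower in both pairs, and of genes that were not dim 31.5% and 23.4%, where the members gave 52.8% and 11.1%. The other 13 had opposite signs, among them Mrtfa, Mrtfb, Vasp and Vcl. The median difference was 0.14 in the Xist pair and 0.29 in the Y pair. With the pair as a block in limma, 5 members had an unadjusted p under 0.05 (Zyx, Ilk, Lpp and Tagln2 higher, Svil lower), 13.9% against 5.35% of all genes. Of the 12272 genes that were not dim, 857 passed, so their share was above that of all genes. No gene passed the adjusted threshold. The pairs were read from the arrays and are not given by the labels, and only 1 degree of freedom is left for each gene's own spread.

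**Figure D3:**
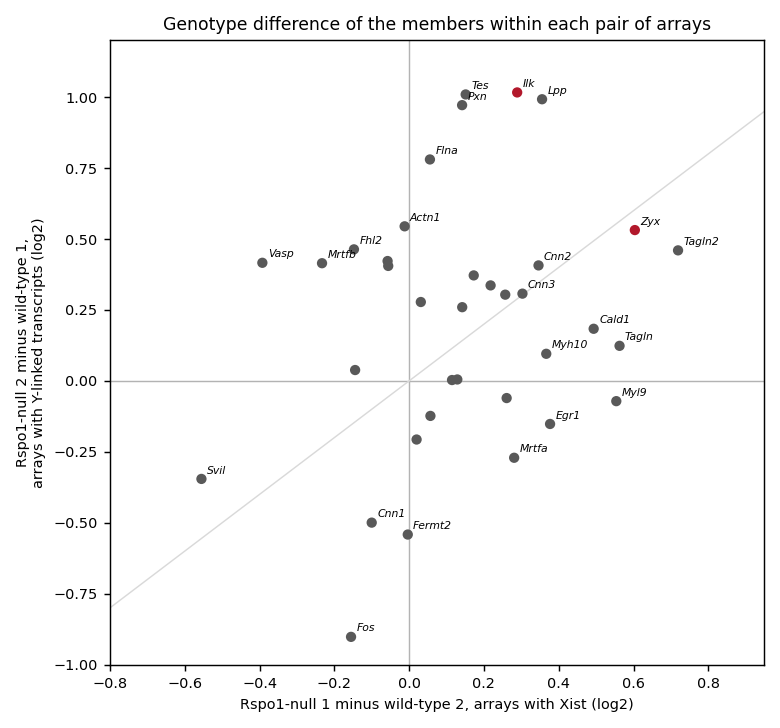
Rspo1-null minus wild-type (log2) for the 36 genes within the Xist pair (x axis) and within the Y pair (y axis), 1 array per genotype in each pair. Zyx (0.60 and 0.53) lies close to the diagonal, Ilk (0.29 and 1.02) above it, and 13 points lie in the quadrants of opposite sign.

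The distance between the pairs was larger than that between the genotypes for 26 of 36 members (72.2%), as it was for 55.3% of all genes and 59.3% of genes that were not dim. The median absolute difference was 0.443 between pairs and 0.269 between genotypes, where all genes gave 0.166 and 0.145 and genes that were not dim 0.214 and 0.163. The pairs did not overlap for 24 members. The Y pair was higher for 14 of them, 38.9% of 36, where the share was 22.2% of all genes and 20.8% of genes that were not dim. It was lower for 10, 27.8% of 36, where the shares were 19.8% and 27.3%.

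The 14 genes that were higher in the Y pair were Srf, Fhl2, Egr1, Tln2, Fermt2, Vcl, Actn4, Pxn, Fhl1, Vasp, Enah, Flnc, Svil and Cnn3. The widest distances were those of Enah (1.08), Fermt2 (1.03), Flnc (0.89) and Vcl (0.85), and Srf itself was higher by 0.57. The 10 that were lower were Mrtfb, Lpp, Trip6, Tes, Evl, Flna, Tagln2, Cald1, Myh9 and Myh10. Here the widest were Tes at -1.51, Flna at -0.83, Myh10 at -0.81 and Lpp at -0.79. Filamin C and filamin A thus lay on opposite sides. The talins did not, since the muscle talin Tln2 was higher (0.28) and Tln1 overlapped between the pairs (-0.04). Both non-muscle myosin heavy chains were lower. The light chain gene Myl9 overlapped between the pairs (0.08). The higher side also held the adhesion genes Pxn, Vasp and Enah, so the sides did not simply part muscle from non-muscle forms.

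Of the 7 members with a CArG box, 5 were higher in the Y pair (Srf, Fhl2, Fermt2, Vcl and Fhl1), none was lower, and Cnn2 and Myl9 overlapped. Of the 23 with a window and no box, Fos among them, 5 were higher, 10 were lower and 8 overlapped. Of the 6 without a window, Egr1, Tln2, Pxn and Svil were higher, and Parva and Tagln overlapped, so their boxes are not known here. Of all genes 22.2% were higher and 19.8% lower in the Y pair without overlap, and of genes that were not dim 20.8% and 27.3%. The median distance was 0.52 with a box and -0.04 without. These are counts over a few genes that were set beside each other after the values were seen, and they carry no test.

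All 8 skeletal muscle markers also parted between the pairs, 6 higher and 2 lower in the Y pair, with a median absolute difference of 1.10. Of all genes 42.0% parted, and of genes that were not dim 48.1%. Ckm, for muscle creatine kinase, was at 8.92 and 8.16 in the Y pair and at 5.55 and 6.06 in the Xist pair. Pax7, the satellite cell factor, ran the other way, with 6.38 and 7.10 against 7.85 and 8.17, as did Myf5 with 5.91 and 6.81 against 8.25 and 8.21. By genotype the mean level of these markers overlapped, at 8.81 to 9.21 in wild-type and 9.04 to 9.46 in null cells. Smooth muscle and pericyte markers were higher in the Y pair for 4 of 8 and lower for 1, where the shares of all genes were 22.2% and 19.8%. Of these markers Actg2, Pdgfrb and Myh11 were dim. The part of these markers in the distances between the pairs was not tested. In bulk RNA a smaller share of cells of a kind and less RNA per cell cannot be told apart.

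**Figure D4:**
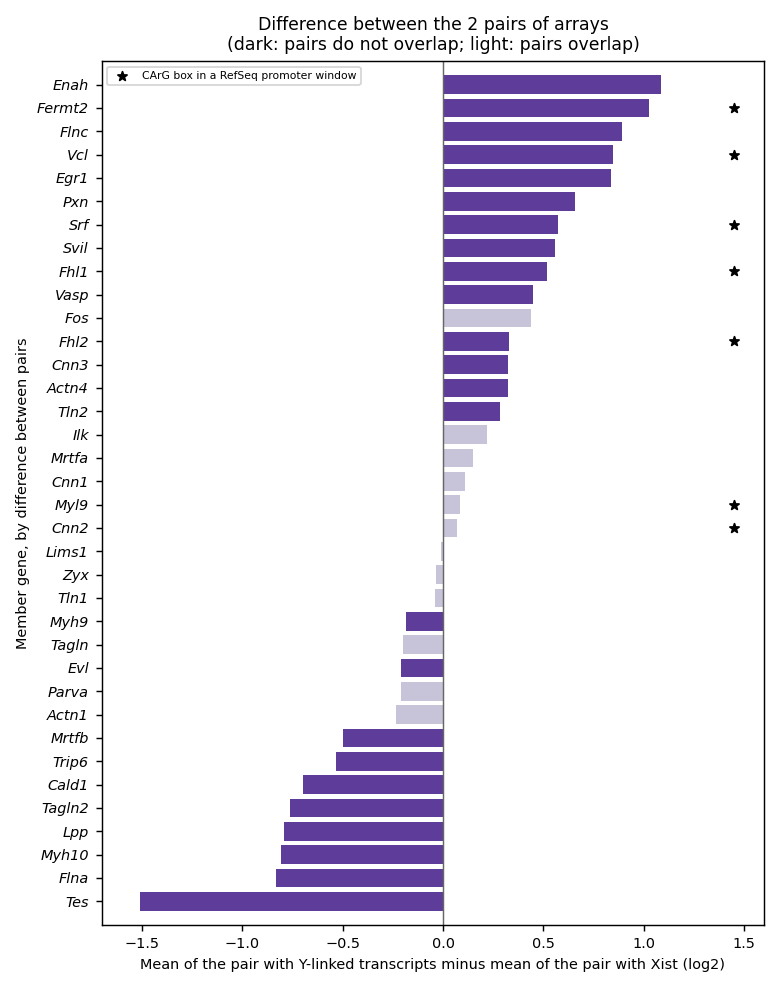
Distance between the array pairs (Y pair mean minus Xist pair mean, log2) for the 36 genes, ordered by size, with genes that hold a CArG box in the 250 bases before a start marked. The values run from -1.51 for Tes to 1.08 for Enah, and 5 of the 7 marked genes lie in the upper range without overlap between the pairs. Of all genes 22.2% were higher in the Y pair without overlap, and 6 of the unmarked genes had no window.

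Further genes of the same pathways were read from lists beyond the 36. Among 24 further SRF targets with a named row, 0 passed the unadjusted threshold, beside 3.17% of all genes and 3.67% of genes that were not dim. The mean was higher in null cells for 13 (54.2%) and lower for 11, and the median difference was 0.16. Of all genes 44.8% had the higher mean in null cells, and of genes that were not dim 55.8%. The 3 with the highest mean signal were the actin genes Acta1, Actc1 and Actb. The skeletal actin Acta1 was at 12.60 and 12.06 against 12.35 and 12.81, the cardiac actin Actc1 at 12.52 and 11.76 against 12.20 and 12.52, and the cytoplasmic actin Actb at 11.88 and 11.91 against 11.73 and 11.76. For Actb the null cells were the lower ones without overlap, by less than 0.2. In this list null cells were lower without overlap for 3 of 24 (12.5%) and higher for 3 (12.5%). Of all genes 19.1% were lower and 12.1% higher in this way, and of genes that were not dim 12.9% and 15.8%.

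Among 25 further focal adhesion genes, 2 (8%) passed at an unadjusted limma p under 0.05, both higher in null cells. The background was 3.17% of all genes and 3.67% of genes that were not dim. By mean 17 (68%) were higher and 8 lower, where 44.8% and 55.8% of those backgrounds were higher, and the median was 0.11. Bcar1 encodes p130Cas, an adaptor that is stretched and phosphorylated at adhesions, and was at 8.63 and 8.41 in wild-type and at 8.89 and 9.27 in null cells, a difference of 0.56 (SE 0.20, unadjusted limma p of 0.0411, adjusted p of 0.999). Ajuba encodes a LIM protein of the zyxin family, and was at 7.39 and 7.38 against 7.70 and 8.19, a difference of 0.56 (SE 0.21, unadjusted limma p of 0.0492, adjusted p of 0.999). Neither passed an adjusted threshold, and the count of 2 fell to 0 under a replicate block, cyclic loess and without Rspo1-null culture 2. The genes of this list with the highest mean signal were Ptpn12 (9.65 and 9.81 against 9.80 and 9.87), for a phosphatase that acts on p130Cas, Rsu1 (9.42 and 9.59 against 9.84 and 9.92), for a PINCH1 binding protein, and Palld (9.39 and 9.11 against 9.11 and 10.34), for palladin. Of these 3, Rsu1 alone had no overlap between the genotypes. In the whole list null cells were higher without overlap for 8 of 25 (32%) and lower for 1 (4%). Of all genes 12.1% were higher and 19.1% lower in this way, and of genes that were not dim 15.8% and 12.9%. The list was chosen with earlier results known, and its share was not tested.

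Among 32 further actin-binding and actomyosin genes, 0 passed, beside 3.17% of all genes and 3.67% of genes that were not dim. By mean 20 (62.5%) were higher and 12 lower, where 44.8% and 55.8% of those backgrounds were higher, and the median was 0.09. The highest mean signals were those of Arpc2 (10.42 and 10.89 against 10.94 and 10.74), for a subunit of the Arp2/3 complex, Capzb (10.01 and 10.16 against 10.33 and 10.54), for a capping protein, and Msn (9.71 and 10.09 against 10.48 and 10.32), for moesin. Capzb and Msn were higher in null cells without overlap, by 0.35 (SE 0.16) and 0.50 (SE 0.19). In this list null cells were higher without overlap for 7 of 32 (21.9%) and lower for 2 (6.25%). Of all genes 12.1% were higher and 19.1% lower in this way, and of genes that were not dim 15.8% and 12.9%. The plot of the lists sets their medians beside -0.03 for all genes and 0.03 for genes that were not dim, and single genes scatter to both sides of 0 in each. Nearly all listed genes were not dim (23 of 24, 25 of 25 and 30 of 32), so the latter median is the closer measure.

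**Figure D5:**
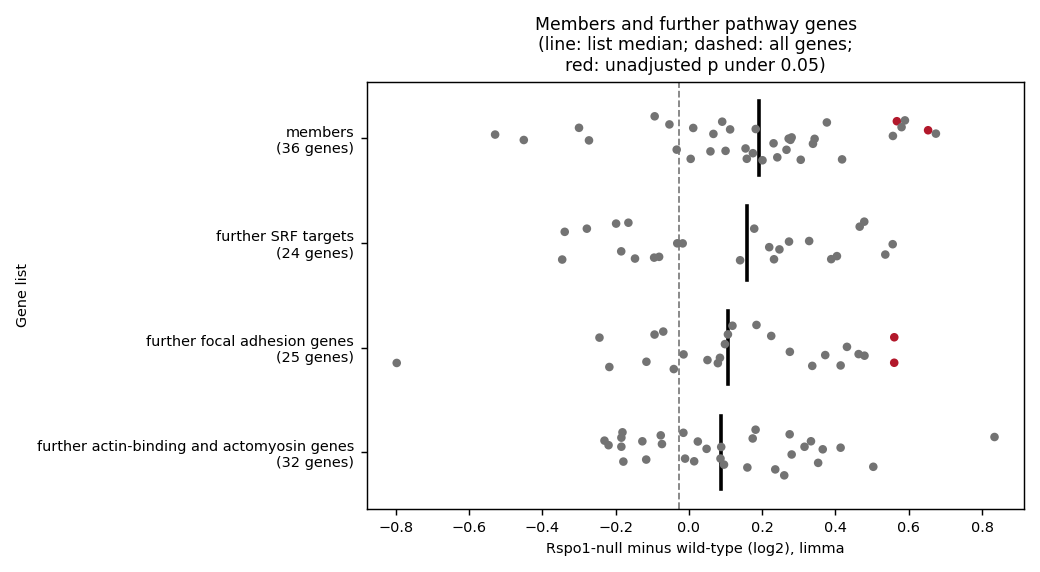
Difference between genotypes (Rspo1-null minus wild-type, log2, x axis) for the 36 genes and for 3 lists of further pathway genes, 1 point per gene, with each list's median as a line and the median of all genes (-0.03) dashed; genes that were not dim had a median of 0.03. The medians are 0.19, 0.16, 0.11 and 0.09, and red points mark Zyx, Ilk, Bcar1 and Ajuba.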

How the data were processed

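RNA of 4 primary myoblast cultures, 2 per genotype, was measured on 1 array each. The authors deposited log2 values normalised by RMA, and the submitters' processing notes also name Partek. Each of 24973 rows was named through the platform's gene table; 24015 had a symbol, 958 were left out, and for 4 symbols with more than 1 row the brightest row was kept. Genotypes were compared by limma 3.58.1 in R 4.3.3 (lmFit and eBayes, Benjamini-Hochberg over 24011 genes, no block), after a check on simulated data. The cultures of each genotype differed in sex-linked transcripts, so they were not from 1 animal, but the number of donors is not given in the labels, so p-values measure the spread between these cultures, and 2 arrays per group limit the precision. Array medians were 4.62 to 4.70. Replicate numbers did not pair the cultures, with a correlation of deviations of -0.358 for equal and 0.358 for crossed numbers, which mirror each other with 2 per group. Every member was named, with fitted differences for those past the unadjusted threshold in any planned setting, SRF and its cofactors, and a few others chosen after their values were seen. Of each further list, genes past the threshold and, where under 3 passed, the 3 with the highest mean were named. A further planned gene list is not reported here. Markers of other cell types, Ckm, Pax7 and Myf5 were also named after their values were seen. Members and lists were chosen with earlier results of these data known. Alternatives were a replicate block, an array pair block, an intensity trend, the methods' analysis of variance, median centring, cyclic loess, leaving out dim genes, averaging rows of a gene, and leaving out each array. CArG boxes were counted in RefSeq promoter sequences, without the bases after the start.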

Additional observations from a re-analysis of the deposited data

Results flagged for a closer look

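For 3 of the 13 members whose difference had opposite signs in the array pairs, both differences were larger than 0.2. Mrtfa, for MRTF-A, was higher in Rspo1-null than in wild-type cells by 0.28 in the Xist pair and had a difference of -0.27 in the Y pair. Mrtfb, for MRTF-B, ran the other way, with -0.23 in the Xist pair and 0.41 in the Y pair. Vasp, for the filament-extending protein VASP, had -0.39 in the Xist pair and 0.42 in the Y pair. With 1 array per genotype in each pair, the difference between the pairs was not tested.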

How the results depend on the processing

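Of 156 recomputed differences for 13 named members, 132 kept direction and side of the threshold, 10 newly passed, 7 no longer passed and 7 changed sign. Mrtfa was -0.025 under cyclic loess. With each array left out, the difference ran from -0.21 to 0.22 for Mrtfa, -0.32 to 0.50 for Mrtfb, -0.065 to 0.61 for Srf, -0.16 to 0.47 for Fhl2 and -0.18 to 1.02 for Flna. Ilk lost its call in 6 of 12 alternatives, and Zyx in 1. The 760 genes past the unadjusted threshold, 288 higher and 472 lower, became 400 with the replicate block, 1284 with the array pair block, 280 without dim genes and 540 (without Rspo1-null culture 2) to 1711 (without wild-type culture 2) with each array left out. The split was 435 higher and 317 lower after median centring, and 346 and 337 after cyclic loess. No gene passed an adjusted threshold in any setting. The 2 members past the threshold became 5 with the pair block, 3 after median centring (Cnn2, Ilk and Zyx), 1 under cyclic loess, 1 without dim genes, and 1 (without wild-type culture 1) to 4 (without wild-type culture 2), and under the analysis of variance the 2 were Cnn2 and Zyx. The members' median was 0.24 after median centring, 0.13 after cyclic loess and 0.12 to 0.19 with each array left out. Of the further SRF targets 1 passed with the replicate block, 1 under the analysis of variance and 0 to 3 with each array left out, and of the actin-binding genes 2 with the pair block, 1 with the trend, 1 after median centring and 0 to 3 with each array left out. The 2 focal adhesion genes became 0 with the replicate block, 3 after median centring, 1 with the trend, 0 under the analysis of variance, 0 under cyclic loess, 0 without dim genes and 0 to 4 with each array left out. The causes were not tested. Signals near background compress differences.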
